A study of Mus musculus with 4 samples.

Results

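The 10 genes described here, Fkbp5, Sgk1, Tsc22d3, Zbtb16, Per1, Nfkbia, Pdk4, Mt1, Mt2 and Nr3c1, are known targets of the glucocorticoid receptor together with the gene of the receptor itself, and are 10 of the 32286 features that were counted. They were chosen by symbol, with a difference of Fkbp5 between the groups of this study already in view. The difference between the groups is therefore given for them as a description. No p is printed for it, and where genes past the threshold of the fit across all genes are counted, the share of all genes past it stands beside the count and nothing is read from either. The data are single-nucleus RNA-seq (snRNA-seq) libraries of dissected cortex and hippocampus from 5-week-old mice, with 1 mouse in each of 4 libraries. All mice carried the floxed Sel1L allele on both chromosomes (Sel1L fl/fl). Those labelled Sel1L SynCre also carried a Cre recombinase driven by the Synapsin I promoter, which is active in neurons. Sel1L is part of the complex that clears misfolded proteins from the endoplasmic reticulum. There were 2 libraries per group. The study names no drug or hormone treatment of these mice other than isoflurane, used for euthanasia before decapitation. The driver is meant to target neurons and not glia, but whether Cre was active in any class of glia was not examined.

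Glucocorticoids are steroid hormones of the adrenal gland, released with a daily rhythm and in response to stress. They enter the cell and bind the glucocorticoid receptor, encoded by Nr3c1, which is held in the cytoplasm by heat shock protein chaperones, moves to the nucleus and binds DNA as a dimer. The bound sequence is a pair of inverted arms, and nearby genes are switched on or off. In the brain both neurons and glia carry the receptor, and neurons of the hippocampus also carry the related mineralocorticoid receptor, encoded by Nr3c2. Fkbp5 damps the pathway that induces it, since it encodes a co-chaperone that lowers the receptor's affinity for hormone. Tsc22d3 encodes GILZ, a mediator of the anti-inflammatory action, and Nfkbia encodes the inhibitor of NF-kappaB. Most of these genes also answer to other inputs: Per1 is a core clock gene and an early response gene, and Mt1 and Mt2 encode metallothioneins, which are induced by zinc and other metals.

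The sequences before the start sites of 3 of the genes are shown because the receptor binds DNA and because the promoters differ in how closely they match its sequence. RefSeq promoters of GRCm38.p6 were found for 8 of the 10 genes, with 16 start sites in all; none was found for Zbtb16 and Nr3c1. In the 250 bases before each start, the full receptor palindrome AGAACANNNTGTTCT, searched on both strands, was present in 3 of 32851 windows (0.00913%), and among the 10 genes in 1 window of Sgk1. Each sequence is given 5′ to 3′ on the strand of the gene, with the motif in capitals.
Sgk1, chr10:21993640-21993889, plus strand, receptor palindrome in capitals at bases 189 to 175 before the start: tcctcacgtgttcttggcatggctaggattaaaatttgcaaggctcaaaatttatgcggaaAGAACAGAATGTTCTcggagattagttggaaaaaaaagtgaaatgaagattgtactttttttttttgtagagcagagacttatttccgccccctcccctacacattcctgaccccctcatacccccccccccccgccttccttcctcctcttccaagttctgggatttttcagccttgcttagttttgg
Mt1, chr8:94178839-94179088, plus strand, looser palindrome GNACANNNTGTNC at bases 94 to 82 before the start and the metal response core TGCACNC, both in capitals: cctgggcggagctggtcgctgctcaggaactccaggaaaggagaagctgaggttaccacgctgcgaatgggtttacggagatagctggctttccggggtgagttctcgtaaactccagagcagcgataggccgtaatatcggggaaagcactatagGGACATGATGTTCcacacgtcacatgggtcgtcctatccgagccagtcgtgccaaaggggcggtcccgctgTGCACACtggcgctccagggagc
Fkbp5, chr17:28486150-28486399, minus strand, E-box CACGTG in capitals at bases 169 to 164 before the start: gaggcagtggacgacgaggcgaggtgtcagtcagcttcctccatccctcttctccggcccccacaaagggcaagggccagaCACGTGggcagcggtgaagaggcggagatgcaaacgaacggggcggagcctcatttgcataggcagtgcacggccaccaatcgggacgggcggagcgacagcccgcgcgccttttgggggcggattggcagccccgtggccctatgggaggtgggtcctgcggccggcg
The looser palindrome was present in 0.387% of all windows, and among the 10 genes in those of Mt1 and Sgk1. A single arm, the hexamer TGTTCT, was in 16.1% of all windows and in those of Sgk1 and Tsc22d3. The metal response core was found in its G form, TGCGCNC, in 12.5% of all windows and in those of Mt2 and Per1, and in its A form, TGCACNC, in 10.4% of all windows and in those of Mt1, Mt2 and Nfkbia. The E-box, the sequence that clock proteins bind, was in 6.02% of all windows and in those of Sgk1, Per1 and Fkbp5. The palindrome and the looser palindrome contain the hexamer, or overlap with it, so these counts are not separate. The window of Fkbp5 held none of the receptor motifs as searched, which says only that these letters are not in those 250 bases. Sgk1 has 6 annotated starts, and reads from the 3′ end of transcripts do not tell which of them was used. The Fkbp5 gene spans chr17:28399094-28517527 on the minus strand in the GENCODE annotation of GRCm38, so the RefSeq start shown lies inside that span. Sgk1 spans chr10:21882184-21999903, Per1 chr11:69095217-69109960, and Mt2 (chr8:94172664-94173568) lies next to Mt1 (chr8:94179082-94180327), all on the plus strand. On the minus strand are Tsc22d3 at chrX:140539528-140600659, Zbtb16 at chr9:48654297-48836222, Nfkbia at chr12:55489410-55492647 and Pdk4 at chr6:5483351-5496309. Counts are per gene, so they do not divide exons from introns.

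The files held 7366 to 12599 nuclei per library and 74082610 to 122870443 unique molecular identifiers (UMIs), of which 33323 nuclei were kept, with a median of 7244.5 to 8397 UMIs per nucleus. Levels are given as UMIs of a gene per 1000000 UMIs (CPM), summed over all nuclei of a class in a library. Nuclei fell into 22 classes, all but 1 named by marker genes and called X-like for that reason, and 17 of them had enough nuclei in every library for a fit. The exception was led by Siglech and stayed unnamed, since its nuclei were shallow, with a median of 1836 UMIs, and none of its 10 leading genes was a listed marker, although 5 of 6 markers of microglia and perivascular macrophages were detected in it. Barcodes shared between libraries numbered 10 to 34 per pair. The check of the labels was not clean. Sel1l RNA was not lower under the SynCre label, at 155 and 128 CPM beside 97.1 and 90.0 CPM under the fl/fl label, and reads from the 3′ end or from introns can lie outside the deleted stretch, so this level checks nothing. Cre transcripts gave 236 and 221 UMIs in the libraries labelled Sel1L SynCre and none in fl/fl replicate 2, but 409 UMIs in fl/fl replicate 1, against its label. Values without that library are therefore given beside the main ones. Xist was 0.436 and 2.19 CPM in replicate 1 of the fl/fl and SynCre groups and 1614 and 1474 CPM in their replicate 2. Ddx3y, on the Y chromosome, gave 4908 and 3260 UMIs in replicate 1 of the groups and 1 and 3 in replicate 2. By these genes replicate 1 of each group was male and replicate 2 female, though the labels do not give sex. Without fl/fl replicate 1, the fl/fl group holds only the female library, so those values are not balanced for sex. The part of sex was not tested. In the values below, the 4 libraries follow the order fl/fl replicate 1, fl/fl replicate 2, SynCre replicate 1, SynCre replicate 2, and labels are used as given.

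Under the fl/fl label, each gene had its own pattern over the 17 classes. Fkbp5 was highest in the Siglech-led nuclei, at a mean of 249 CPM, followed by granule cells of the dentate gyrus (DG-like) at 115 CPM, and lowest in cortical L4/5 IT-like neurons at 11.2 CPM. Nr3c1 was also highest in the Siglech-led nuclei (300 CPM), then in astrocyte-like nuclei (207 CPM) and L6 CT-like neurons (199 CPM), and was lowest in CA3-like neurons (36.1 CPM). Mt1 and Mt2 were highest in astrocyte-like nuclei, at 458 and 152 CPM, and the next class in each case, the Siglech-led nuclei, had 76.7 and 15.5 CPM. Pdk4, which encodes a kinase that shuts pyruvate out of the tricarboxylic acid cycle, was at 25.6 CPM in astrocyte-like and 4.9 CPM in oligodendrocyte-like nuclei and gave at most 2 UMIs per library in each class of neurons. Tsc22d3 was highest in oligodendrocyte-like nuclei (180 CPM), followed by astrocyte-like (68.9 CPM) and Siglech-led nuclei (31.5 CPM). Zbtb16, which encodes the zinc finger repressor PLZF, had its highest levels in Vip-like (462 CPM) and Lamp5-like interneurons (379 CPM). Sgk1, a kinase that regulates ion channels and transporters, was highest in oligodendrocyte precursor (OPC-like) nuclei (186 CPM) and Vip-like interneurons (182 CPM), and lowest in astrocyte-like nuclei (10.5 CPM). Per1 had its highest means in astrocyte-like (52.8 CPM) and oligodendrocyte-like nuclei (50.8 CPM), and Nfkbia in astrocyte-like nuclei (29.7 CPM). With 2 libraries, most neighbours in these orders did not differ beyond their spread. Of 16 neighbouring pairs of classes, the ranges of the libraries overlapped in 12 for Fkbp5, Tsc22d3, Per1 and Mt2, in 14 for Pdk4, in 11 for Sgk1 and Nfkbia, in 10 for Zbtb16, and in 9 for Mt1 and Nr3c1.

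Fkbp5 was higher in both libraries labelled Sel1L SynCre than in both labelled Sel1L fl/fl in 16 of 17 fitted classes, neurons and glia alike. Over whole libraries it measured 41.2 and 44.0 CPM in the fl/fl libraries and 81.2 and 108 CPM in the SynCre libraries. In L2/3 IT-like cortical neurons the 4 libraries gave 26.6, 26.6, 55.5 and 95.4 CPM, a log2 fold change of 1.49 ± 0.21 (SE, n = 2 per group). L4/5 IT-like neurons gave 11.6, 10.8, 25.1 and 39.3 CPM (1.48 ± 0.21). L6 CT-like neurons gave 20.5, 21.7, 53.3 and 72.6 CPM (1.51 ± 0.16). The fl/fl libraries agreed closely in these cortical classes, and replicate 2 was the higher of the SynCre libraries in each of them. L5/6 IT-like neurons had 19.8, 30.2, 53.0 and 73.7 CPM (1.32 ± 0.19), and L6b-like neurons 27.9, 24.5, 60.9 and 112 CPM (1.62 ± 0.29). L5/6 NP-like neurons had a log2 fold change of 1.05 ± 0.23 with groups that did not overlap.

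**Figure D1:**
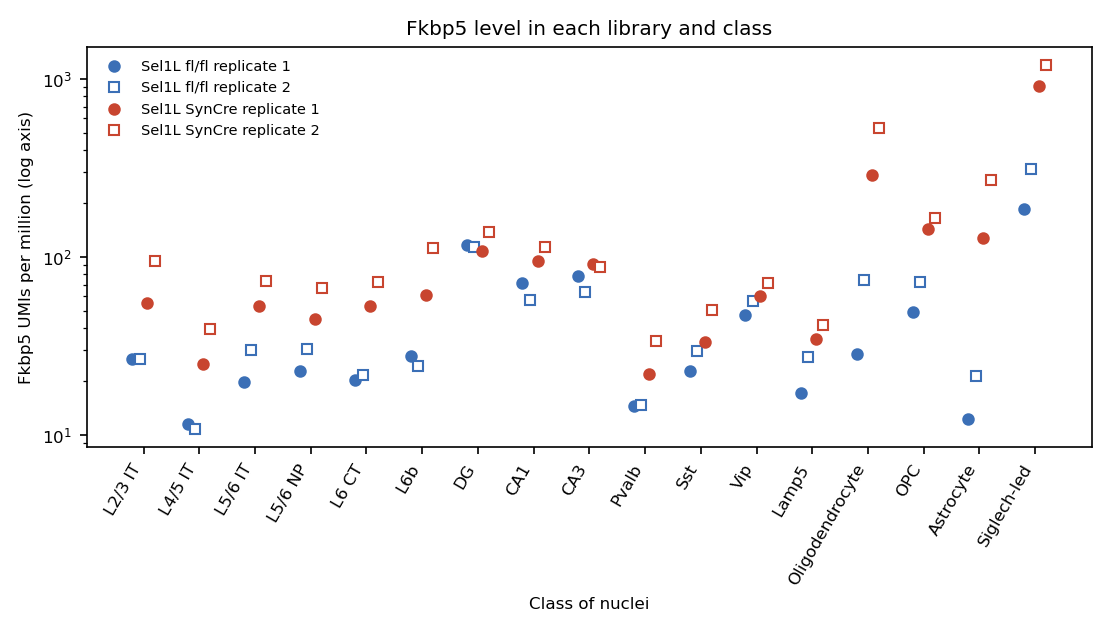
Fkbp5 in CPM (log axis) for each of the 4 libraries in the 17 fitted classes. Blue points are the libraries labelled Sel1L fl/fl and red points those labelled Sel1L SynCre, with filled points for replicate 1 and open points for replicate 2; tick labels leave out the ending -like. Both red points lie above both blue points in every class but DG, and the gap is widest in astrocyte-like nuclei.

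Hippocampal neurons had more Fkbp5 than cortical excitatory neurons in the fl/fl libraries. DG-like neurons already had 117 and 113 CPM of Fkbp5 in the fl/fl libraries and had 108 and 139 CPM in the SynCre libraries, so the groups overlapped and the log2 fold change was 0.04 ± 0.13. CA1-like neurons had 71.2, 57.4, 95.3 and 114 CPM (0.64 ± 0.15), and CA3-like neurons 78.2, 63.4, 90.9 and 87.8 CPM (0.25 ± 0.15). The groups did not overlap in either, but neither was past the threshold. Without fl/fl replicate 1, CA1-like neurons were at 0.83 and past it. Among interneurons, Pvalb-like, Sst-like, Lamp5-like and Vip-like nuclei had log2 fold changes of 0.85 ± 0.25, 0.60 ± 0.23, 0.72 ± 0.30 and 0.32 ± 0.17. Whether the fold differed between classes was not tested.

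The 3 highest fold changes of Fkbp5 were measured in glia and in the Siglech-led nuclei. In astrocyte-like nuclei the libraries gave 12.2, 21.3, 129 and 270 CPM, from 18, 16, 322 and 275 UMIs. The log2 fold change was 3.62 ± 0.38, or 12.3-fold, and rested on few UMIs under the fl/fl label. In oligodendrocyte-like nuclei the libraries gave 28.4, 74.4, 290 and 531 CPM (2.99 ± 0.40). In the Siglech-led nuclei they gave 187, 311, 918 and 1195 CPM (2.05 ± 0.22). The lower SynCre library was more than the higher fl/fl library in each of these classes, and the fl/fl libraries also differed from each other, with replicate 1 the lower. OPC-like nuclei had 48.8, 72.3, 144 and 166 CPM (1.37 ± 0.20). Without fl/fl replicate 1, the log2 fold change of Fkbp5 was 3.15 in astrocyte-like, 2.42 in oligodendrocyte-like, 1.72 in Siglech-led and 1.12 in OPC-like nuclei, and 1.52, 1.57, 1.75, 1.07 and 1.50 in L2/3 IT-like, L4/5 IT-like, L6b-like, L5/6 IT-like and L6 CT-like neurons. Classes too small for a fit held few UMIs. Fkbp5 measured 108, 209, 599 and 1009 CPM in vascular fibroblast or pericyte-like nuclei, from 9 to 165 UMIs per library, and the groups overlapped in endothelial-like nuclei.

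Markers of other cell types in the glial classes are given as measured, and their part in these results was not tested. The summed level of the 6 oligodendrocyte markers in oligodendrocyte-like nuclei was 15536, 15333, 14299 and 12399 CPM. In OPC-like nuclei it was 208, 173, 84.5 and 127 CPM, and in Siglech-led nuclei 365, 218, 104 and 91.7 CPM, lower in the SynCre libraries in both. In astrocyte-like nuclei it was 817, 378, 335 and 542 CPM, and the groups overlapped. The 7 neuronal markers summed to 364, 271, 282 and 323 CPM in oligodendrocyte-like and to 463, 312, 338 and 489 CPM in astrocyte-like nuclei, overlapping in both. Oligodendrocyte-like nuclei numbered 1847 and 1173 in the fl/fl libraries and 355 and 365 in the SynCre libraries, and astrocyte-like nuclei 441, 220, 708 and 260.

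Over all 10 genes, 136 of 170 gene and class pairs passed the filter on low counts, and 25 of those had an adjusted p below 0.05 (edgeR quasi-likelihood test, Benjamini-Hochberg), all of them higher in the SynCre libraries. Among the 25, Tsc22d3 in OPC-like nuclei passed that filter only through the SynCre libraries, so it could only be called higher. Pdk4 in oligodendrocyte-like nuclei met the filter in fl/fl replicate 2 but not in fl/fl replicate 1. Its pass therefore also rested on the SynCre libraries. The genes were selected on this contrast, so nothing is read from these counts. The log2 fold changes of the 25 pairs ran from 0.61 to 3.62, and from 0.69 to 3.15 without fl/fl replicate 1. Each kept its sign in that fit, but not all stayed past the threshold. Both SynCre libraries lay above both fl/fl libraries in 94 of the 170 pairs and below them in 12, with overlap in 64. Such separation was not counted over all genes. The counts of it, here and for single genes, are therefore description, and nothing is read from them. The median log2 fold change of the 136 pairs was 0.58, beside class medians of all genes between -0.0062 and 0.0099. The genes were selected on this contrast, and some pairs passed the filter only through the SynCre libraries. This median is therefore description as well, and nothing is read from it. In L2/3 IT-like neurons 1 of 9 genes tested was past the threshold, where 0.471% of all genes were. In L4/5 IT-like neurons there were 4 of 9 (background 1.8%), in L5/6 IT-like neurons 2 of 8 (0.77%) and in L5/6 NP-like neurons 0 of 6 (0.0608%). L6 CT-like neurons had 3 of 9 (0.454%) and L6b-like neurons 1 of 6 (0.207%). In the hippocampus DG-like neurons had 0 of 9 (3.78%), CA1-like neurons 0 of 8 (0.0161%) and CA3-like neurons 0 of 7 (0.041%). Among interneurons they were 1 of 8 in Pvalb-like (4.18%), 2 of 7 in Sst-like (7.95%), 0 of 6 in Vip-like (0.0262%) and 1 of 6 in Lamp5-like nuclei (1.42%). Glia had 3 of 10 in oligodendrocyte-like (0.881%), 4 of 9 in OPC-like (2.76%), 2 of 10 in astrocyte-like (0.336%) and 1 of 9 in Siglech-led nuclei (0.0382%). Fkbp5 supplied 9 of the 25 pairs, Per1 5, Zbtb16 and Mt1 4 each, and Sgk1, Tsc22d3 and Pdk4 1 each. Nfkbia, Mt2 and Nr3c1 supplied none.

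**Figure D2:**
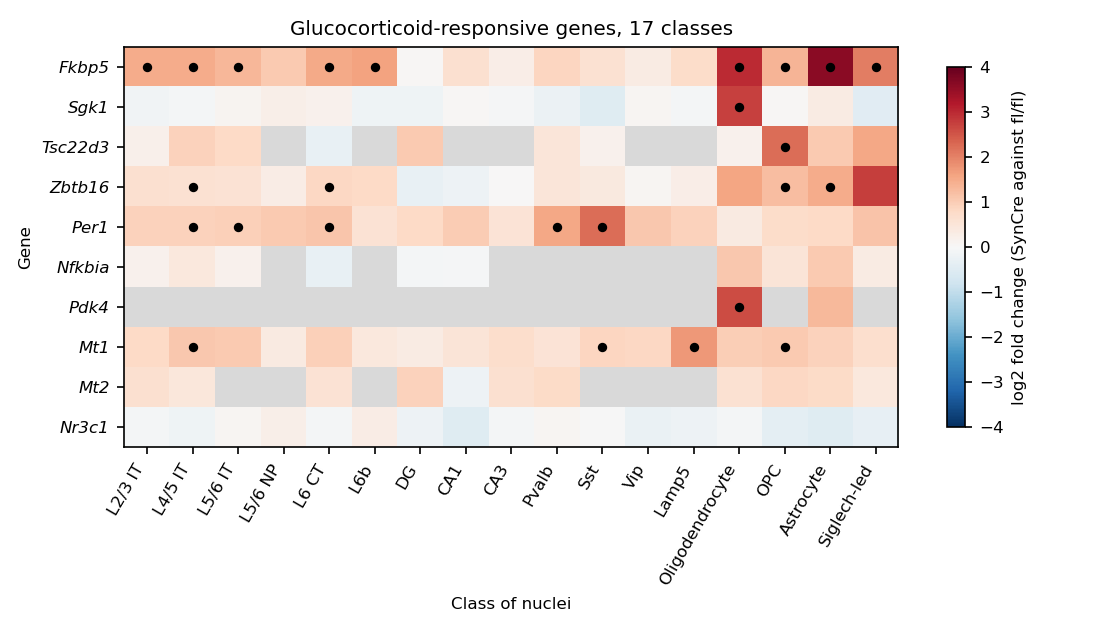
Fitted log2 fold change of each of the 10 genes (rows) between the libraries labelled SynCre and fl/fl in 17 classes (columns, named without -like). Red is higher in SynCre, blue lower, grey not tested for low counts, and black dots mark an adjusted p below 0.05; Fkbp5 is red in each class but DG, where it was 0.04, and Nr3c1 runs between -0.48 and 0.29.

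The receptor gene, Nr3c1, was past the threshold in none of the 17 classes. It measured 144 and 132 CPM over the fl/fl libraries and 133 and 126 CPM over the SynCre libraries. Its log2 fold change lay between -0.48 and 0.29 over the 17 classes, with a median of -0.09, and the SynCre libraries were above in 5 classes and below in 5. In astrocyte-like nuclei it was 232, 183, 150 and 148 CPM (-0.48 ± 0.18), and in CA1-like neurons 135, 126, 100 and 95.2 CPM (-0.47 ± 0.13). Both SynCre libraries were the lower ones there. In L6b-like neurons it was 147, 127, 178 and 180 CPM (0.29 ± 0.17), with both SynCre libraries the higher ones.

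Tsc22d3 was higher in both SynCre libraries in 9 of 17 classes, neurons and glia among them. It was lower in both in 1 and overlapped in 7, which included the class where it was most abundant. Among neurons, L4/5 IT-like nuclei had 2.53, 2.32, 4.19 and 5.38 CPM (0.93 ± 0.34), from 25, 17, 24 and 40 UMIs. In oligodendrocyte-like nuclei the libraries gave 186, 174, 244 and 169 CPM and the groups overlapped. In astrocyte-like nuclei they gave 56.5, 81.4, 126 and 157 CPM (1.06 ± 0.22), and in Siglech-led nuclei 31.3, 31.7, 58.7 and 134 CPM (1.54 ± 0.35). In OPC-like nuclei they gave 3.09, 3.11, 16.0 and 13.9 CPM, from 5, 4, 18 and 14 UMIs. That was the only class in which Tsc22d3 was past the threshold, and it was no longer past it without fl/fl replicate 1. At those counts it passed the filter only through the SynCre libraries, so it could only be called higher and no fold is given. Nfkbia was 12.6, 14.4, 21.1 and 36.9 CPM in oligodendrocyte-like nuclei (1.08 ± 0.29) and 31.3, 28.0, 59.9 and 63.9 CPM in astrocyte-like nuclei (1.04 ± 0.22). Groups did not overlap in either, whereas in neurons Nfkbia stayed between 0 and 5.80 CPM. Its highest levels were in endothelial-like nuclei, a class too small for a fit, at 301, 336, 385 and 364 CPM, the second from only 7 UMIs.

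Sgk1 and Pdk4 stood out in oligodendrocyte-like nuclei. Sgk1 measured 35.2, 135, 456 and 696 CPM there (2.75 ± 0.48), and 2.05 without fl/fl replicate 1. The fl/fl libraries differed from each other by more than in any neuronal class, yet both SynCre libraries were higher. In other classes Sgk1 hardly differed: the groups overlapped in 13 of 17, and the median log2 fold change was -0.05. In Sst-like interneurons it was 86.7, 103, 67.6 and 74.6 CPM (-0.49 ± 0.15), and in OPC-like nuclei 197, 175, 162 and 228 CPM. Pdk4 was 3.99, 5.75, 20.2 and 38.8 CPM in oligodendrocyte-like nuclei, from 27, 20, 22 and 40 UMIs (2.61 ± 0.38; 2.30 without fl/fl replicate 1). Its pass of the filter on low counts there also rested on the SynCre libraries. In astrocyte-like nuclei Pdk4 was 27.2, 24.0, 69.5 and 54.1 CPM (1.29 ± 0.25), with no overlap between groups but not past the threshold. These were the 2 classes with enough UMIs of Pdk4 for a fit.

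**Figure D3:**
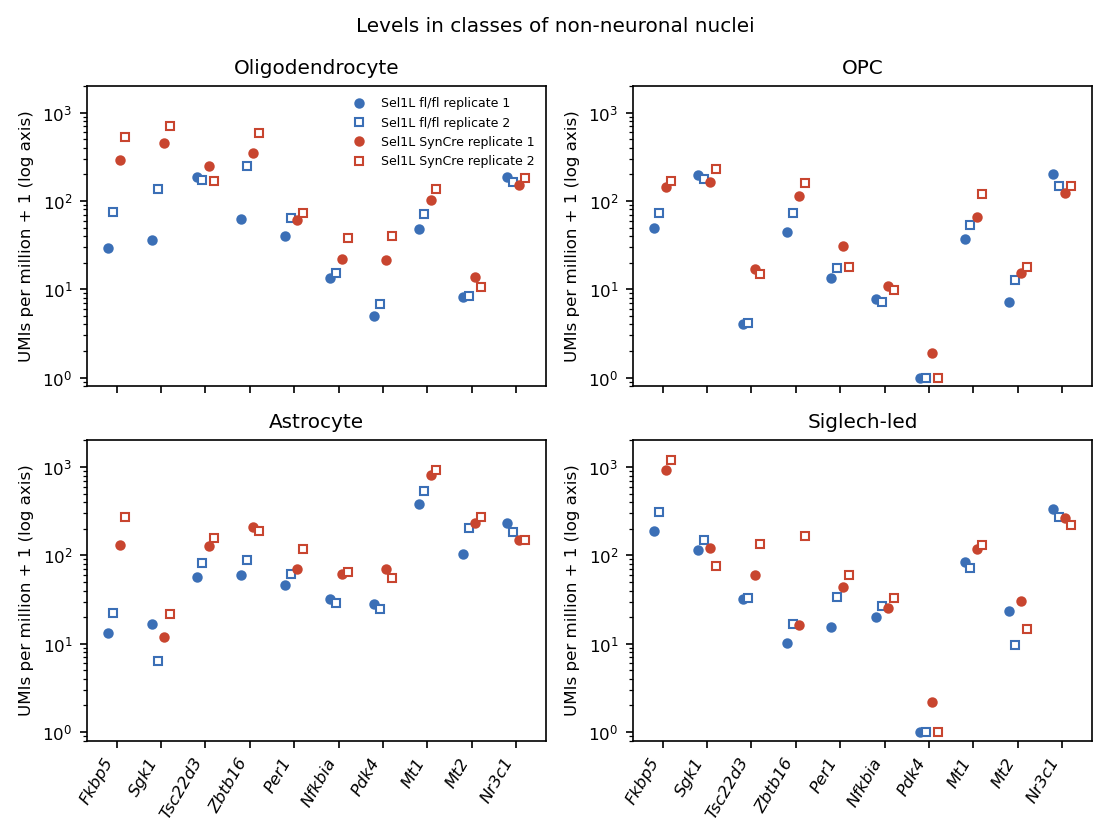
Levels of the 10 genes in oligodendrocyte-like, OPC-like, astrocyte-like and Siglech-led nuclei, in CPM plus 1 on a log axis, with 1 point per library (blue fl/fl, red SynCre, filled replicate 1, open replicate 2). Fkbp5 is higher in red in all 4 panels, and Sgk1 is separated between groups in the oligodendrocyte-like panel alone. Nr3c1 is lower in red in the astrocyte-like and Siglech-led panels and overlaps in the oligodendrocyte-like and OPC-like panels.

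Zbtb16 was above the fl/fl libraries in both SynCre libraries in 13 of 17 classes. In L4/5 IT-like neurons it was 167, 158, 262 and 251 CPM (0.61 ± 0.12), and in L6 CT-like neurons 88.0, 109, 177 and 185 CPM (0.82 ± 0.13). In both the replicates of a group lay close together. In OPC-like nuclei it was 43.9, 72.3, 113 and 157 CPM (1.23 ± 0.21) and in astrocyte-like nuclei 58.5, 86.7, 209 and 189 CPM (1.50 ± 0.22), the latter 1.19 and no longer past the threshold without fl/fl replicate 1. In 2 of the 3 hippocampal classes both SynCre libraries were the lower ones: DG-like neurons had 297, 345, 271 and 278 CPM (-0.28 ± 0.10) and CA1-like neurons 257, 241, 231 and 214 CPM (-0.21 ± 0.13). CA3-like neurons had 150, 154, 165 and 160 CPM (0.03 ± 0.11), with both SynCre libraries slightly above. In Siglech-led nuclei 1 library stood apart, with 9.13, 15.8, 15.3 and 165 CPM.

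Per1 was higher in both SynCre libraries in 15 of 17 classes. Sst-like interneurons had 10.4, 11.5, 44.2 and 65.8 CPM (2.23 ± 0.25), and Pvalb-like interneurons 14.3, 22.5, 38.1 and 71.0 CPM (1.53 ± 0.29). The excitatory classes past the threshold were L6 CT-like (24.6, 26.9, 50.4 and 66.5 CPM, 1.12 ± 0.15), L4/5 IT-like (39.0, 34.3, 58.1 and 85.6 CPM, 0.92 ± 0.17) and L5/6 IT-like neurons (24.9, 23.5, 39.2 and 58.6 CPM, 0.95 ± 0.19). Replicate 2 was again the higher SynCre library in each of them. In oligodendrocyte-like nuclei, where Per1 was 39.0, 62.7, 59.7 and 71.9 CPM, the groups overlapped.

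The metallothioneins bind zinc and copper. Mt1 was higher in both SynCre libraries in 15 of 17 classes, with a median log2 fold change of 0.81. In astrocyte-like nuclei, its main source, it was 379, 538, 814 and 935 CPM (0.93 ± 0.21), not past the threshold. In L4/5 IT-like neurons it was 8.72, 8.75, 19.2 and 19.1 CPM (1.08 ± 0.18), and in Lamp5-like interneurons 12.3, 21.6, 42.2 and 74.1 CPM (1.73 ± 0.33). The L4/5 IT-like replicates were nearly identical within each group. Sst-like interneurons (15.5, 16.0, 30.2 and 31.1 CPM, 0.87 ± 0.23) and OPC-like nuclei (36.5, 52.8, 65.0 and 119 CPM, 1.04 ± 0.24) were past the threshold with all libraries and not without fl/fl replicate 1, at 0.88 and 0.80. Mt2 was 103, 201, 233 and 270 CPM in astrocyte-like nuclei (0.75 ± 0.27) and at most 9.39 CPM in every fitted class of neurons. Mt1 and Mt2 are close paralogs on chromosome 8, and Mt2 overlaps the antisense gene Gm45774, so how the counting divided reads between them is uncertain.

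Other genes known as glucocorticoid targets were compared in the same fit. This list and those below were also chosen with earlier results of these data known. Their counts are therefore not independent of this contrast. Of a list of 28, 25 could be tested in at least 1 class, and 13 of 260 gene and class pairs rose and 2 fell, or 5.77%, where 1.50% of all 204567 pairs of genes and classes were called. Without fl/fl replicate 1 the list gave 24 pairs higher and 1 lower of 276 (9.06%), and the share over all genes was then also larger, at 2.40%. The median log2 fold change of the list was 0.25. Hif3a, a member of the hypoxia-inducible factor family, rose in oligodendrocyte-like nuclei from 3.10 and 13.5 CPM to 62.5 and 231 CPM (4.28 ± 0.63). It met the filter on low counts there in fl/fl replicate 2 but not in fl/fl replicate 1. Its pass therefore also rested on the SynCre libraries, and no p is given for it. In OPC-like nuclei it was 2.47, 7.77, 53.4 and 185 CPM. The SynCre libraries differed widely from each other in both classes, and the lower of them exceeded both fl/fl libraries. Klf9, a transcription factor induced by glucocorticoid and thyroid hormone, rose in Sst-like interneurons from 22.9 and 16.5 to 42.1 and 44.0 CPM (1.01 ± 0.22, adjusted p = 0.010) and in OPC-like nuclei from 39.6 and 31.1 to 73.9 and 66.4 CPM (0.97 ± 0.22, adjusted p = 0.011). Sult1a1, a sulfotransferase, rose in astrocyte-like nuclei from 9.53 and 14.7 to 49.5 and 50.1 CPM (2.12 ± 0.30, adjusted p = 0.022; 1.74 and 0.091 without fl/fl replicate 1), and in Siglech-led nuclei from 25.4 and 33.4 to 103 and 133 CPM (1.97 ± 0.23, adjusted p = 0.033). Mertk, a receptor for the uptake of dying cells, rose in OPC-like nuclei from 66.7 and 124 to 242 and 349 CPM (1.64 ± 0.21, adjusted p = 1.8e-05).

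Cdkn1a, the cell cycle inhibitor p21, was called in 4 classes, from almost no UMIs in the fl/fl libraries. At those counts it passed the filter only through the SynCre libraries, so it could only be called higher. In Sst-like interneurons the libraries held 0, 1, 11 and 16 UMIs, in OPC-like nuclei 1, 0, 15 and 12 and in oligodendrocyte-like nuclei 5, 1, 10 and 47. Pvalb-like interneurons held 4, 2, 25 and 13 UMIs. No fold or p is given at these counts, although these pairs are among the 13 that rose. Hif3a in OPC-like nuclei, with 4 and 10 UMIs in the fl/fl libraries, also passed the filter only through the SynCre libraries. It is among the 13 as well, and no fold or p is given for it. The remaining pairs, named after their values were seen, were Arrdc2 in oligodendrocyte-like nuclei (1.95 ± 0.30, adjusted p = 0.018) and Mfsd2a, a lipid transporter, in astrocyte-like nuclei (1.74 ± 0.30, adjusted p = 0.046; 1.84 and 0.073 without fl/fl replicate 1), which rose. Those that fell were both in DG-like neurons, Svil from 15.5 and 28.2 to 5.82 and 7.41 CPM (-1.75 ± 0.31, adjusted p = 0.0057) and Cebpd (-0.57 ± 0.15, adjusted p = 0.048; -0.67 and 0.081 without fl/fl replicate 1).

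**Figure D4:**
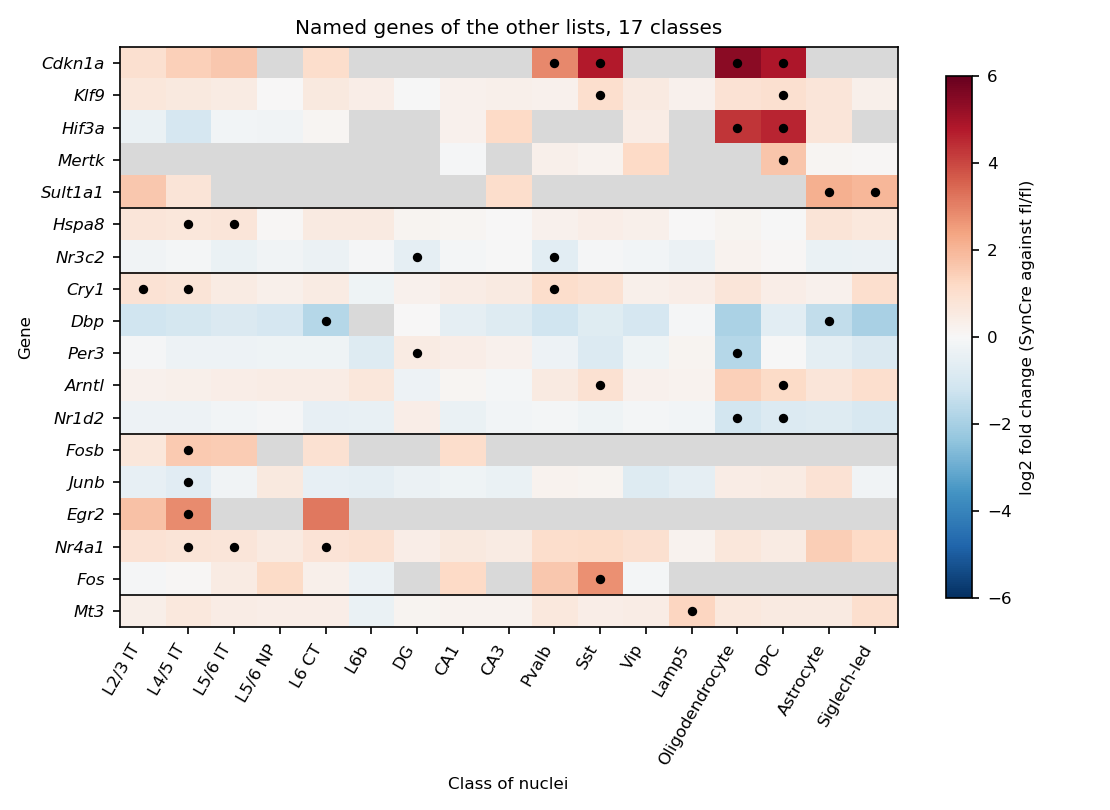
Fitted log2 fold change between the libraries labelled SynCre and fl/fl for the genes named from each of 5 lists (other targets, receptor machinery, clock, immediate early and metal response, from top to bottom, divided by lines) in 17 classes named without -like. Red is higher in SynCre, blue lower, grey not tested, and dots mark an adjusted p below 0.05. Hif3a is reddest in glia, Dbp is blue where dotted, and colours for Cdkn1a come from few UMIs. The fl/fl libraries also held few UMIs of Hif3a in OPC, Fos in Sst and Egr2 in L4/5 IT.

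Receptor machinery covers the chaperones that hold the receptor, its cofactors and the enzymes that activate or inactivate the hormone. Of 15 such genes, Nr3c1 among them, 14 were tested, with 2 pairs higher and 2 lower of 221 (1.81%), near the 1.50% of all pairs. Hspa8, a constitutive chaperone, rose in L4/5 IT-like (0.70 ± 0.13, adjusted p = 0.030) and L5/6 IT-like neurons (0.71 ± 0.16, adjusted p = 0.042). Nr3c2 fell in DG-like neurons from 1132 and 915 to 764 and 691 CPM (-0.55 ± 0.12, adjusted p = 0.016) and in Pvalb-like interneurons from 224 and 221 to 150 and 148 CPM (-0.65 ± 0.13, adjusted p = 0.014). Without fl/fl replicate 1 the difference in DG-like neurons was -0.38 with an adjusted p of 0.12.

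Because Per1 also belongs to the clock and answers to neuronal activity, genes with those inputs were counted next to it. Of 15 clock genes, 7 of 242 pairs rose and 7 fell (5.79%). Cry1, a clock repressor, rose in L2/3 IT-like (0.87 ± 0.15, adjusted p = 0.048), L4/5 IT-like (0.76 ± 0.14, adjusted p = 0.028) and Pvalb-like nuclei (1.06 ± 0.25, adjusted p = 0.028). Arntl, the activator that opposes it, rose in Sst-like (0.89 ± 0.19, adjusted p = 0.010) and OPC-like nuclei (1.15 ± 0.25, adjusted p = 0.0066). Per3, a close relative of Per1, fell in oligodendrocyte-like nuclei from 110 and 101 to 29.4 and 36.9 CPM (-1.70 ± 0.19, adjusted p = 0.0051) and rose in DG-like neurons (0.51 ± 0.12, adjusted p = 0.030). Dbp, an output gene of the clock, fell in L6 CT-like neurons from 17.8 and 18.0 to 3.81 and 7.33 CPM (-1.73 ± 0.27, adjusted p = 0.026) and in astrocyte-like nuclei from 108 and 89.4 to 28.3 and 48.2 CPM (-1.46 ± 0.24, adjusted p = 0.036). Nr1d2 fell in oligodendrocyte-like (-1.12 ± 0.17, adjusted p = 0.017) and OPC-like nuclei (-0.83 ± 0.18, adjusted p = 0.0086). Npas2 in astrocyte-like nuclei (1.06 ± 0.18) and Tef in Sst-like (-0.65 ± 0.18) and OPC-like nuclei (-0.69 ± 0.19), named after their values were seen, made up the rest. The labels do not give the hour of dissection. Without fl/fl replicate 1 no pair named here changed sign, and 7 of them had an adjusted p of 0.056 to 0.23. Their log2 fold changes were then 0.97 for Cry1 in Pvalb-like, 0.39 for Per3 in DG-like, 0.90 for Arntl and -0.63 for Tef in OPC-like, -0.67 for Tef in Sst-like, and 1.02 for Npas2 and -1.32 for Dbp in astrocyte-like nuclei.

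Of 10 immediate early genes, 6 of 104 pairs rose and 1 fell (6.73%). Nr4a1, an orphan nuclear receptor induced by activity, rose in L6 CT-like (0.83 ± 0.14, adjusted p = 0.041), L4/5 IT-like (0.80 ± 0.15, adjusted p = 0.025) and L5/6 IT-like neurons (0.74 ± 0.15, adjusted p = 0.025). In L4/5 IT-like neurons Fosb rose (1.56 ± 0.34, adjusted p = 0.050), and Junb fell from 143 and 161 to 82.4 and 111 CPM (-0.70 ± 0.14, adjusted p = 0.036). Fos in Sst-like interneurons held 6, 3, 12 and 35 UMIs, and Egr2 in L4/5 IT-like neurons 7, 4, 17 and 48. At those counts both passed the filter only through the SynCre libraries, so they could only be called higher. No fold or p is given for them, although they are among the 6 pairs that rose. Of 4 genes of the metal response, Mt3, the brain metallothionein, rose in Lamp5-like interneurons from 14.4 and 18.2 to 41.1 and 42.8 CPM (1.27 ± 0.30, adjusted p = 0.044; 1.13 and 0.10 without fl/fl replicate 1). No other of 58 pairs was called, so the share was 1.72%, near the 1.50% of all pairs.

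A contrast within the libraries labelled Sel1L SynCre asked whether the 10 genes were higher in the nuclei that carried transcripts of the unfolded protein response. Nuclei with 2 or more UMIs over Derl3, Creb3l2, Sdf2l1, Trib3, Chac1, Ddit3 and Fam129a were compared with nuclei with 0, class by class, with the library as a block. In L4/5 IT-like neurons, 109 and 118 nuclei of the SynCre libraries had 2 or more, against 6 and 1 of the fl/fl libraries. In OPC-like nuclei, which are glia, there were 72 and 39 against 17 and 12. Over the 7 classes of the contrast such nuclei made up 5.56% to 48.6% of a class in the SynCre libraries and 0.147% to 6.93% in the fl/fl libraries, the highest number in 1 fl/fl library being 17, in OPC-like nuclei. The contrast could be fitted in 7 classes, with 44 gene and class pairs. Pvalb-like and Sst-like interneurons were not among them, since too few of their nuclei had 0 UMIs. In the SynCre libraries 90% and 77.45% of Pvalb-like and 87.15% and 70.48% of Sst-like nuclei had 2 or more. The fl/fl libraries already had 32.17% and 29.77% of Pvalb-like and 15.12% and 13.3% of Sst-like nuclei with 2 or more. None of the 44 rose and 5 fell, with a median log2 difference of -0.06. Fkbp5, higher in L4/5 IT-like neurons of the SynCre libraries, was 27.3 CPM in nuclei with and 22.2 CPM in nuclei without stress gene UMIs in replicate 1, and 35.3 and 41.3 CPM in replicate 2 (-0.05 ± 0.18, adjusted p = 0.92). In L2/3 IT-like neurons the log2 difference of Fkbp5 was -0.24 ± 0.18 (adjusted p = 0.81), in L6 CT-like neurons 0.21 ± 0.19 (adjusted p = 0.78), in DG-like neurons -0.05 ± 0.13 (adjusted p = 0.98), in Lamp5-like interneurons -1.08 ± 0.39 (adjusted p = 0.29) and in OPC-like nuclei 0.21 ± 0.23 (adjusted p = 0.98). A p above the threshold does not show that these nuclei were alike.

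The 5 differences past the threshold lay in 2 classes. In CA3-like neurons Fkbp5 was lower in nuclei with stress gene UMIs, at 62.7 against 115 CPM in replicate 1 and 64.7 against 105 CPM in replicate 2 (-0.81 ± 0.19, adjusted p = 0.0013), and Zbtb16 was lower, at 146 against 199 and 127 against 182 CPM (-0.51 ± 0.15, adjusted p = 0.028). In L4/5 IT-like neurons Nr3c1 was lower, at 106 against 152 and 102 against 170 CPM (-0.66 ± 0.11, adjusted p = 2.1e-06). Zbtb16 was lower there too, at 210 against 296 and 211 against 273 CPM (-0.46 ± 0.10, adjusted p = 0.00023), and Per1 at 49.5 against 62.2 and 61.2 against 94.1 CPM (-0.52 ± 0.14, adjusted p = 0.0041). Both libraries agreed in direction in all 5. The share of all genes called was 1.42% in L2/3 IT-like, 13.9% in L4/5 IT-like, 0.913% in L6 CT-like, 0.305% in DG-like, 4.05% in CA3-like and 0.343% in Lamp5-like nuclei, and 0% in OPC-like nuclei, where edgeR and DESeq2 each called 0 genes and 375 of 6905 tested in edgeR had an unadjusted p below 0.05.

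Depth and subtype markers moved with the state, and their part in these differences was not tested. L4/5 IT-like nuclei with stress gene UMIs had a median of 12097 and 13514 UMIs against 9186 and 8983 without. The 5 markers of L2/3 IT neurons summed in L4/5 IT-like nuclei to 276 and 269 CPM with and to 515 and 510 CPM without stress gene UMIs, and the 5 DG markers in CA3-like nuclei to 90.8 and 139 CPM with and 44.6 and 27.9 CPM without. After nuclei were thinned to 4000 UMIs, Pvalb-like and Sst-like interneurons could be fitted and CA3-like neurons could not. None of the 10 genes was called, but L4/5 IT-like neurons kept only 33 and 39 nuclei with stress gene UMIs. The log2 differences there were then -0.74 for Nr3c1, -0.42 for Zbtb16 and -0.28 for Per1. DESeq2 called 1 of the 5, Nr3c1 in L4/5 IT-like neurons. Of the other lists, the clock genes Per3 (-0.88 ± 0.13, adjusted p = 4.2e-08), Hlf (-0.92 ± 0.15, adjusted p = 1.5e-06) and Nr1d2 (-0.79 ± 0.14, adjusted p = 6.6e-06) were lower in the L4/5 IT-like nuclei with stress gene UMIs, as was Klf9 (-0.53 ± 0.14, adjusted p = 0.0029). Hsd11b1, the enzyme that regenerates active glucocorticoid, was higher there (1.53 ± 0.35, adjusted p = 0.00073), as was Nr3c2 (0.40 ± 0.13, adjusted p = 0.025), which in CA3-like neurons was lower (-0.39 ± 0.11, adjusted p = 0.014). Per3 was the only gene of these other lists that DESeq2 also called, and after thinning Nr3c2 in L4/5 IT-like neurons was at -0.0895 (adjusted p = 0.96).

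Over 80 class and library sums from 22 classes, the genes most like Fkbp5 among 10984 with a mean of at least 10 CPM were Gm22146 (Pearson r = 0.91 of log2(CPM + 1)), Upf2 (r = 0.77) and Ccnl1 (r = 0.77). The sums share libraries and depth, so the values are descriptive. Gm22146 is a small non-coding RNA annotated at chr17:28446861-28447148, inside the Fkbp5 gene and on the opposite strand, and without a statement that strand was used in the counting its UMIs cannot be told apart from those of Fkbp5.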

How the data were processed

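Nuclei of cortex and hippocampus were profiled in 4 libraries, 2 per label (Sel1L fl/fl or Sel1L SynCre), with 1 mouse each. The deposited values are raw UMI counts per gene and nucleus, made by the authors with Cell Ranger 6.1.0 on GRCm38 (submitters' processing notes) from 10x Genomics 3′ libraries, with a Cre sequence added; the use of introns and strand in counting is not given in the sources used here. The members and the gene lists were chosen with earlier results of these data known.

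Nuclei with more than 600 genes and under 5% mitochondrial UMIs were kept, and doublets were removed with Scrublet in scanpy 1.11.5 at 0.8% per 1000 nuclei. Nuclei were integrated and clustered in Seurat 5.3.0 (2000 variable features without the 10 genes, 17 dimensions, resolution 0.2, then 0.4 for neurons and glia), and clusters were named when at least 3 listed markers were detected. Neuronal or shallow clusters with none of their markers among the 10 leading genes, and clusters led by markers of another class, stayed unnamed, which left 7079 nuclei in no class. The Siglech-led cluster was fitted under its leading gene. UMIs were summed per library and class, and classes with at least 20 nuclei in every library were fitted in edgeR 4.0.16 (R 4.3.3), as in the study's methods, with TMM scaling, filterByExpr, a two-sided quasi-likelihood F test and Benjamini-Hochberg adjustment over all genes of a class at 0.05. The SE is the log2 fold change divided by the root of F, and the prior count was 0.125. Precision is set by the summed UMIs, given with values of few UMIs, and by 2 libraries per group, with which an exact permutation test cannot go below p = 0.333.

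Named genes were all 10 members, up to 5 genes per other list past the threshold in the most classes, and the 3 genes most like Fkbp5 by Pearson r. Alternatives were RLE scaling, DESeq2 1.42.0, other filters, doublets kept, names without integration (95.9% of nuclei kept their class), thinning, a replicate block and each library left out. The fits were tested on simulated counts. Promoters came from RefSeq (GRCm38.p6) and gene spans from GENCODE vM21.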

Additional observations from a re-analysis of the deposited data

Results flagged for a closer look

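For 3 of the 10 genes the groups separated in opposite directions in different classes, counting only classes in which the gene was tested. Sgk1 was above both fl/fl libraries in both SynCre libraries in 3 tested classes and below them in 1. Zbtb16 was above in 13 and below in 2, DG-like and CA1-like neurons, and Nr3c1 was above in 5 and below in 5. In each case the difference between classes was not tested. Over all 17 fitted classes, with pairs left untested for low counts, Tsc22d3 (9 above, 1 below), Nfkbia (6 and 2) and Pdk4 (2 and 1) also separated both ways. Such separation was not counted over all genes, so nothing is read from these counts. Cre transcripts, which no comparison above used, gave 409 UMIs in replicate 1 and 0 UMIs in replicate 2 under the fl/fl label. With 2 libraries per group, no test for a single library that stands apart was possible.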

How the results depend on the processing

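The 25 gene and class pairs of the 10 genes past the threshold became 50 with no filter beyond 1 UMI, and were 11 to 44 with 1 library left out, with 11 without SynCre replicate 2 and 44 without fl/fl replicate 2. No alternative turned the sign of these 25. The share of all genes called moved too, from 1.50% in the main fit to 2.11% with no filter and 2.86% under the replicate block. It also moved with a library left out, and not always in the same direction as the counts of the 10 genes. Changes of the counts in this section are not read as results about the lists. Pairs lower in the SynCre libraries were 0 in the main fit, 1 after thinning to the smallest sum of a class, and 0 to 2 with 1 library left out. DESeq2 shared 18 of the 25 calls, doublets kept 18 and RLE scaling 25. The fits without a SynCre library shared fewer than any of these, and the one without SynCre replicate 2 the fewest. The log2 fold changes of the 25 then ran from 0.53 to 4.04 without SynCre replicate 1 and from 0.57 to 3.08 without SynCre replicate 2. The cause of these losses was not tested. For the other targets, 13 pairs higher became 37 with no filter and 27 under the replicate block, and 10 to 35 with 1 library left out. The 2 pairs lower became 5 with no filter, 4 under the replicate block, 1 with DESeq2, 1 with names without integration and 1 after thinning, and 1 to 3 with 1 library left out. Receptor machinery gave 4 pairs, 7 with no filter and 1 to 15 with 1 library left out, with 15 without fl/fl replicate 2. Clock, immediate early and metal genes together gave 22 pairs, 69 with no filter, 42 under the replicate block and 21 to 61 with 1 library left out. For the lists other than the 10 genes, a similar count does not mean that the same pairs were called. With either SynCre library left out, many of their main calls that could be fitted fell short of the threshold. Such losses were fewer with either fl/fl library left out, and no sign turned in these fits. Within the SynCre libraries, the 5 gene and class pairs lower in nuclei with stress gene UMIs became 1 with DESeq2 and 0 after nuclei were thinned to 4000 UMIs, for which the nuclei and the classes fitted were fewer. In that thinned fit Nr3c2 in L4/5 IT-like neurons turned from 0.40 to -0.0895 (adjusted p = 0.96).

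Replicate numbers are shared between the groups but the labels do not say that they pair animals, and deviations of same-numbered libraries from their group means correlated at 0.0416 to 0.243 over genes. The replicate block moved the calls of the 10 genes from 25 to 36, of which 24 were shared. A library left alone in its group was assumed to vary like the others. Differences resting on fewer than 20 UMIs in the libraries of a group are limited by depth. Tsc22d3 in OPC-like and Fkbp5 in astrocyte-like nuclei are such cases.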
